A study of Bos taurus with 6 samples.

Results

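bta-miR-132 and bta-miR-212 are the bovine members of a microRNA pair known from the ovary for its response to gonadotropins, and they were followed here in granulosa cells under heat stress (HS). They were taken by name from the deposited tables, where they made up 2 of the 1028 listed miRNAs. The cells came from small antral bovine follicles of 3 to 6 mm and had been cultured for 24 h at 37 °C in medium with exosome-depleted serum. Afterwards 3 control samples stayed at 37 °C and 3 HS samples were moved to 42 °C for another 24 h, and small RNA was sequenced from each. No genotype, hormone treatment or other agent set the groups apart, and a gonadotropin-treated group was not analysed here, so the levels below describe cells without a hormone comparison. The labels do not say whether the numbered replicates came from separate animals or pools of ovaries, so p-values measure only the spread between these samples.

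MicroRNAs are short RNAs that guide a repressor complex to complementary sites in messenger RNAs, mostly through a seed near their 5′ end. miR-132 and miR-212 are cut from 1 shared primary transcript in mammals. Its promoter responds to CREB, the transcription factor that is switched on by cyclic AMP. In granulosa cells the luteinizing hormone surge raises cyclic AMP, and the pair is known as one of the prompt miRNA responses to that signal. The same transcript responds to activity in neurons.

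RefSeq annotates assembly ARS-UCD2.0 with both genes, and there MIR132 and MIR212 lie next to each other with no other annotated gene between them. DPH1 is the neighbour on the side of MIR132 and HIC1 on the side of MIR212, and 0 annotated genes overlap either of them. Positions are not given because the reads were mapped to another assembly, UMD3.1. The tables held 1 row for each member, and 0 of these 2 rows carried an arm suffix (5p or 3p), against 206 of all listed rows. The arm that each row counts was therefore not established here, and mature sequences were not used.

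The deposited values gave 2076239 to 4590971 whole miRNA reads per library after collapsing of molecular identifiers, with control replicate 1 as the shallowest. Values are reads per 1000000 reads of effective library size. The authors obtained this size from each total with a TMM factor (trimmed mean of M-values), and the values are called normalised CPM below. On the first principal component of 278 detected miRNAs, control replicate 1 scored 6.13, away from the scores of -4.93 and -4.86 of control replicates 2 and 3, with the HS libraries at 4.22, 2.42 and -2.97. The second component separated the groups, with control libraries at 4.62, 2.93 and 2.77 and HS libraries at -1.54, -3.7 and -5.09. The fold changes of the pair, their ratio, their correlation and their closest miRNAs are therefore given with and without control replicate 1. The gonadal bta-miR-202 was present in all libraries, at 1346, 2749 and 2726 normalised CPM for control replicates 1, 2 and 3, and 2095, 1309 and 1982 for the HS replicates. Control replicates 2 and 3 were above every HS library, and the groups overlapped only through control replicate 1. In the limma fit described below, its log2 fold change (HS relative to control) was -0.3 ± 0.321 (SE, limma adjusted p = 0.814), so a difference was not established.

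bta-miR-132 was the abundant member. In control replicates 1, 2 and 3 its level was 1011, 899.8 and 1065 normalised CPM. In HS replicates 1, 2 and 3 the level was 948, 969 and 1083. The lowest value belonged to a control library and the highest to an HS library, and the groups overlapped. The control mean was 992 ± 84.4 and the HS mean 1000.1 ± 72.8 (SD, n = 3 each). These values rested on 2070 to 5090 reads per library. The share of all miRNA reads ran from 0.0911% in control replicate 2 (95% exact binomial interval 0.0884% to 0.0939%) to 0.111% in HS replicate 3 (0.108% to 0.114%). Such intervals cover counting error only, although molecular identifiers limit copies from PCR.

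bta-miR-212 was present at a far lower level. In control replicates 1, 2 and 3 its level was 29.8, 31.5 and 37.1 normalised CPM. In HS replicates 1, 2 and 3 the level was 33.5, 34.8 and 38.5. The lowest values were those of control replicates 1 and 2, control replicate 3 exceeded HS replicates 1 and 2, and the groups overlapped. The control mean was 32.8 ± 3.8 and the HS mean 35.6 ± 2.6 (SD, n = 3 each). These values rested on 61, 145 and 133 reads in the control libraries and on 101, 128 and 181 reads in those of HS cells. The share of reads ran from 0.00294% in control replicate 1 (95% exact binomial interval 0.00225% to 0.00377%) to 0.00394% in HS replicate 3 (0.00339% to 0.00456%). A count of 3 reads, the floor of detection, corresponded to 0.638 to 1.465 normalised CPM, so that both members were well above it in every library.

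**Figure D1:**
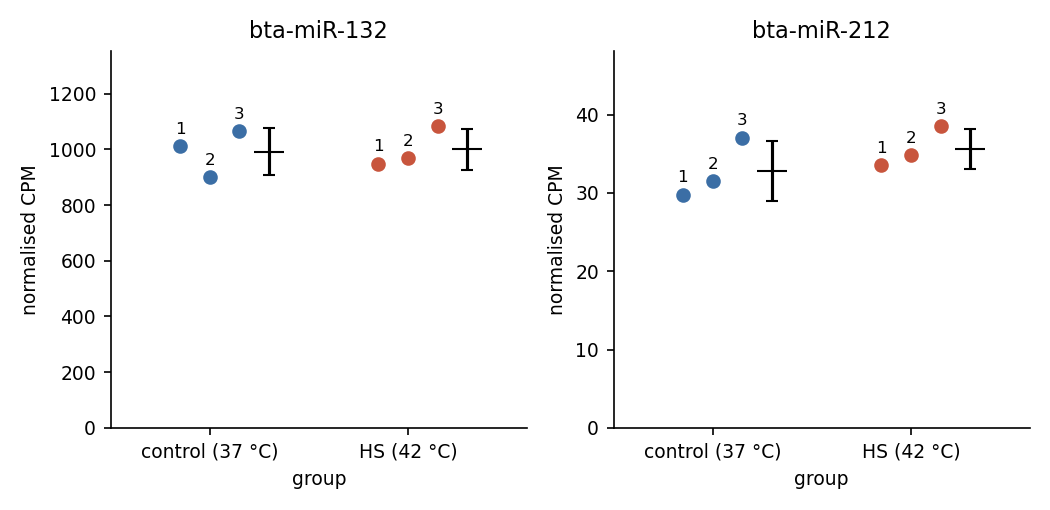
Level of bta-miR-132 (left) and bta-miR-212 (right) in normalised CPM, by group, with axes that start at 0. Each point is 1 library with its replicate number, and the black mark shows the group mean with its SD (n = 3). For both members the control and HS points overlap, at 899.8 to 1083 for bta-miR-132 and 29.8 to 38.5 for bta-miR-212.

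In the order of mean levels over the 6 libraries, bta-miR-132 was number 78 of 1028, and within single libraries it ranked between 75 and 84. The miRNA next above it was bta-miR-423-3p, with a mean of 1004 normalised CPM, and the next below was bta-miR-15a with 939. The range of bta-miR-132 over the libraries overlapped those of both neighbours, so that this order was within the spread. bta-miR-212 was number 209, and ranked between 201 and 213 within libraries. Its neighbours bta-miR-200b, at 35.1 on average, and bta-miR-9851, at 33.5, also overlapped it. By the study's detection rule (10 normalised CPM or more in at least 2 libraries of a group), both members were detected in both groups, in 3 of 3 libraries each.

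To determine whether HS altered the pair, both were read from a limma fit of 365 miRNAs on the log2(normalised CPM + 1) scale. bta-miR-132 had a log2 fold change (HS relative to control) of 0.013 ± 0.128 (SE), with a 95% interval of -0.29 to 0.32 (limma adjusted p = 0.972). As a fold this is 1.01, with an interval of 0.818 to 1.24. bta-miR-212 had a log2 fold change of 0.12 ± 0.174 (SE), with an interval of -0.29 to 0.53 (limma adjusted p = 0.844). The corresponding fold was 1.09, with an interval of 0.817 to 1.45. Neither difference could be told from 0 beside the spread between replicates. With 3 libraries a group, changes inside these intervals remain compatible with the data.

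The study's threshold asks for an adjusted p no higher than 0.2 together with a log2 fold change of 1 or more in size. By it, 0 of the 2 members were called, while 3.01% of all tested miRNAs were (11 of 365, 4 higher and 7 lower in HS cells). The split moved with the scaling and the libraries: it was 2 higher and 9 lower with upper quartile factors, 12 higher and 6 lower with each library scaled to bta-miR-361, and 9 higher and 7 lower without control replicate 1. At an adjusted p under 0.05 with no minimum fold, 0 of 2 members were called against 2.19% of the tested miRNAs. The 8 miRNAs behind this share became 20 with the DESeq2 Wald test, 5 with upper quartile factors or without control replicate 2, 4 without HS replicate 1 and 2 without control replicate 3, HS replicate 2 or HS replicate 3, and neither member was among them. At an unadjusted p under 0.05 in limma the number of members was again 0, against 14.5% of the tested miRNAs. The edgeR quasi-likelihood test, the DESeq2 Wald test and limma-voom, run on whole reads, also gave 0 members at an unadjusted p under 0.05, against 13.2%, 13.4% and 14.8% of the tested miRNAs. Control and HS values were fully separate for 0 of 2 members, and for 20.0% of all tested miRNAs. Leaving out control replicate 1 gave log2 fold changes of 0.028 for bta-miR-132 (limma adjusted p = 0.961) and 0.056 for bta-miR-212 (limma adjusted p = 0.933), which for bta-miR-212 was less than its value with all libraries by over 1.5 times.

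The size of the log2 fold change of bta-miR-132 was among the smallest: it was exceeded in size by all but 10 of the other tested miRNAs. For bta-miR-212, 120 of the 365 tested miRNAs (32.9%) had a smaller one. The median size over all tested miRNAs was 0.2, and the median log2 fold change was -0.0015. Placed against all tested miRNAs by mean level, both members lie near the line of no change at their own abundance.

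**Figure D2:**
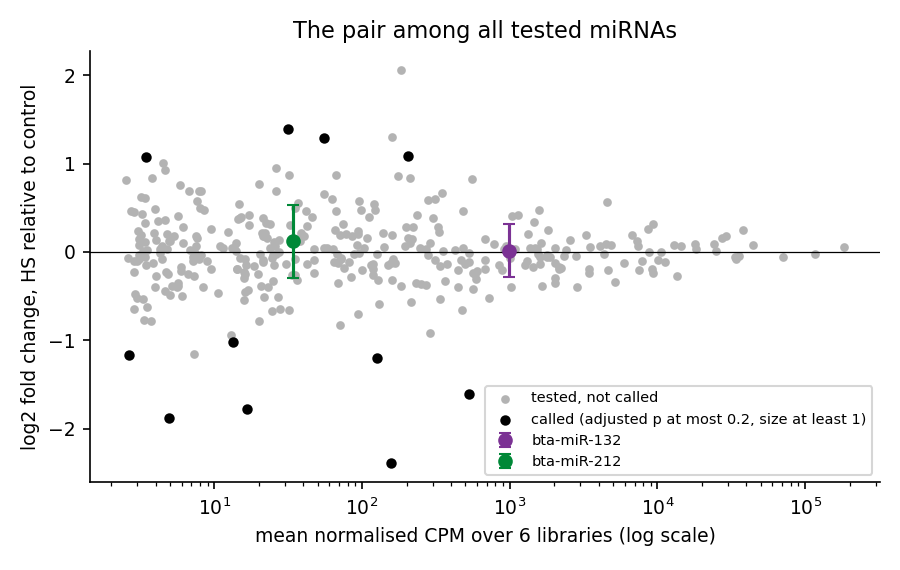
Log2 fold change (HS relative to control) of each of the 365 tested miRNAs against its mean normalised CPM over the 6 libraries, on a log scale. Black points are the 11 miRNAs past the study's threshold, grey points the others, and the coloured points are bta-miR-132 (0.013) and bta-miR-212 (0.12) with 95% intervals, both of which include 0.

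The spread among replicates was examined as well. The SD within groups, pooled over both on the log2 scale, was 0.114 for bta-miR-132 and 0.133 for bta-miR-212, where the median of the tested miRNAs was 0.266. A smaller SD was found for 11.2% of the 365 tested miRNAs in the case of bta-miR-132 and for 14.5% in that of bta-miR-212. The tested miRNAs include many of low level. No comparison at like abundance was made, so whether the low spread is particular to the members is not known. For bta-miR-132 the SD of the log2 values was 0.125 in control and 0.103 in HS cells, while counting alone would give 0.0258 and 0.0238. For bta-miR-212 the SD was 0.159 in control and 0.101 in HS cells, against 0.143 and 0.126 from counting alone. With its few reads, bta-miR-212 had a spread close to what counting alone gives, so that differences between its libraries could not be told from counting error.

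As both members come from 1 transcript, their ratio within each library was examined next. This ratio of read levels does not depend on how libraries are scaled. It is not a ratio of molecules, since the efficiency of adapter ligation can differ between miRNAs. bta-miR-132 exceeded bta-miR-212 by 33.9, 28.6 and 28.8 times in control replicates 1, 2 and 3. In HS replicates 1, 2 and 3 the ratio was 28.3, 27.8 and 28.1. The values of 5 libraries thus lay between 27.8 and 28.8, and control replicate 1 was above them. With its 61 reads of bta-miR-212, the counting interval of control replicate 1 (95%, normal approximation on the log scale) ran from 26.3 to 43.8 and included the ratios of the other libraries.

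The mean ratio was 30.4 ± 3.05 for control and 28.1 ± 0.237 for HS libraries (SD, n = 3 each). On the log2 scale the difference was -0.11, and all HS libraries were below all control libraries (exact two-sided permutation test, p = 0.1, the smallest p that 3 against 3 libraries allow). The test could therefore not reach 0.05. Without control replicate 1 the difference was -0.028. These log2 ratios were taken after adding 1 to each value. With 5 added instead and all libraries kept, the difference was -0.094 (exact two-sided permutation test, p = 0.2). In HS cells the SD of the log2 ratio was 0.0121, where counting alone gives 0.109 to 0.146 for a single library. The HS ratios were thus closer to each other than their own counting error, and this closeness is no measure of their precision.

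Across the 6 libraries the log2 levels of the members had a Pearson r of 0.64 and a Spearman rho of 0.66 (exact permutation tests over pairings, p = 0.168 and p = 0.175), so that a relation was not established. It was the only relation between members that was tested. Without control replicate 2 and HS replicate 3, the libraries farthest from the median of bta-miR-132, r fell to 0.28 over 4 libraries (exact permutation test, p = 0.75). Without control replicate 1, r was 0.987 over 5 libraries (exact permutation test, p = 0.00833, the smallest p that 5 libraries allow). In that set the order was the same for both members, lowest in control replicate 2 and highest in HS replicate 3. Control replicate 1 was also the library whose ratio lay above the others, so this p does not establish a relation. With any other single library left out, r was 0.436 to 0.678 (exact permutation tests, p = 0.225 to 0.467). The result therefore depended on which libraries were kept. All values of a library also share its scaling factor, which moves both members together.

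**Figure D3:**
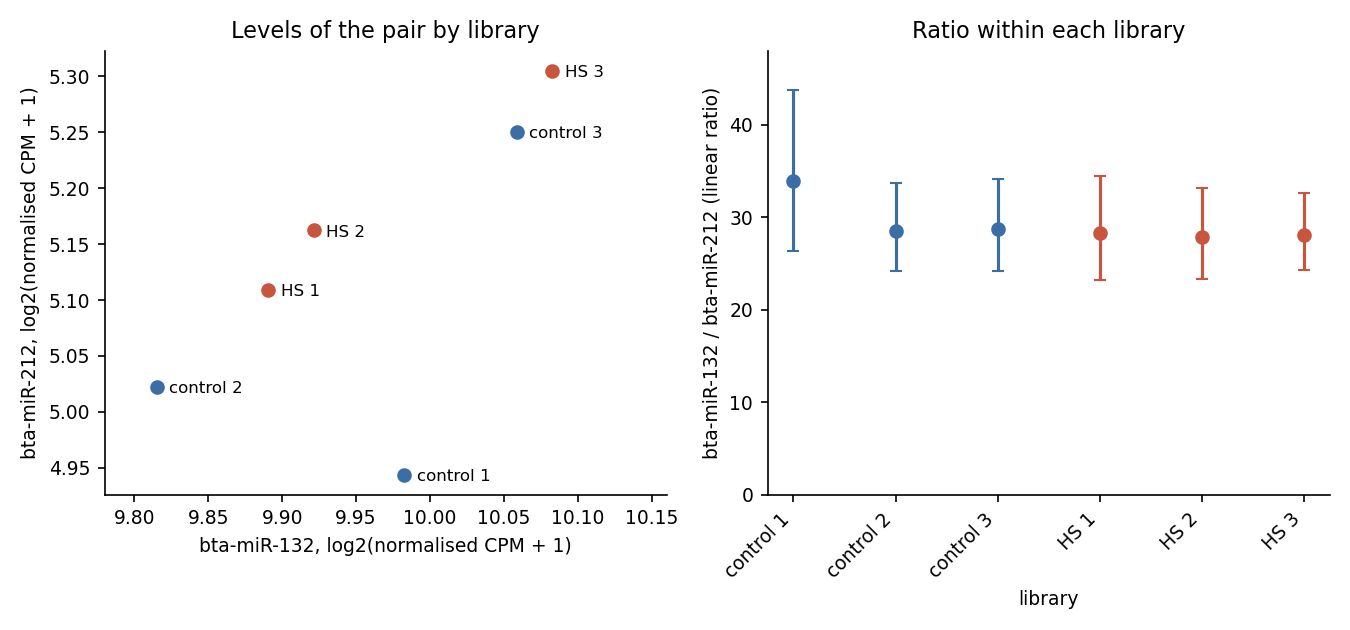
Left, log2(normalised CPM + 1) of bta-miR-212 against that of bta-miR-132, 1 point per library (blue control, red HS), on axes that do not start at 0. Right, linear ratio of bta-miR-132 to bta-miR-212 in each library with its 95% counting interval. In 5 libraries the ratio is 27.8 to 28.8, and control replicate 1 is at 33.9 with the widest interval.

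The tested miRNAs closest in pattern to each member changed when control replicate 1 was left out. With all 6 libraries, the highest Pearson r with bta-miR-132 was that of bta-miR-204 (0.929), followed by bta-miR-2887 (0.909) and bta-miR-10174-3p (0.868), and bta-miR-212 came 22nd of 364. The level of bta-miR-204 was 1726, 1166 and 1883 normalised CPM for control replicates 1, 2 and 3, and 1582, 1564 and 1867 for the HS replicates. Like bta-miR-132, it was lowest in control replicate 2. For bta-miR-212 the highest r was that of bta-miR-7862 (0.962), followed by bta-miR-545-5p (0.92) and bta-miR-425-3p (0.912), and bta-miR-132 came 43rd. The level of bta-miR-7862 was 55.7, 66.9 and 77.2 normalised CPM for control replicates 1, 2 and 3, and 70.01, 74.2 and 83.01 for the HS replicates. bta-miR-545-5p had a mean of only 3.04 normalised CPM and is uncertain for that reason. Without control replicate 1, the members were the closest of 364 to each other, with an r of 0.987 over 5 libraries. bta-miR-7862 was then the next closest to both, with 0.956 for bta-miR-132 and 0.986 for bta-miR-212, while bta-miR-204 came 4th for bta-miR-132 (0.93). These correlations over 5 or 6 libraries are descriptions of the closest of 364 candidates, and the set without control replicate 1 was added after the values were seen.

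A list of 12 other miRNAs linked to gonadotropins or steroid production in granulosa cells was read from the same fit. bta-miR-136 was listed at 0 in every library, bta-miR-503 had rows only by arm, which the list did not name, and 9 of the 12 had enough reads to be tested. At an adjusted p of at most 0.2 with no minimum fold, 1 of the 9 was called and was higher in HS cells, and 0 were lower, against 7.12% of all tested miRNAs. The median log2 fold change of the 9 was 0.04, beside -0.0015 for all tested miRNAs. The arms of bta-miR-503 are not in these counts and were looked up after the values were seen. bta-miR-503-5p averaged 101 ± 9.48 normalised CPM over control and 143 ± 29.9 over HS libraries (SD, n = 3 each). Its groups did not overlap, and its log2 fold change of 0.48 ± 0.194 (SE) had a limma adjusted p of 0.311 and an unadjusted p of 0.0437. For bta-miR-503-3p the log2 fold change was 0.18 ± 0.238 (SE, limma adjusted p = 0.839), and the groups overlapped. The called miRNA was bta-miR-320a, which has been studied in granulosa cells for its effect on estradiol production. Its level was 4552, 3504 and 3127 normalised CPM for control replicates 1, 2 and 3, and 5806, 5842 and 4706 for the HS replicates. The groups did not overlap, and the log2 fold change was 0.56 ± 0.169 (SE, limma adjusted p = 0.199). It was no longer past 0.2 under 10 of 20 alternatives, with the adjusted p running from 0.0462 to 0.512. With 1 library left out, it stayed past 0.2 only without control replicate 1 (limma adjusted p = 0.0608), and the other 5 fits gave 0.287 to 0.512.

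The most abundant miRNA of that list was bta-miR-21-5p, which also responds to luteinizing hormone in granulosa cells and is known for its effect on cell survival. Its mean over the 6 libraries was 182970 normalised CPM, and its log2 fold change was 0.054 ± 0.145 (SE, limma adjusted p = 0.959). The study's reference for droplet PCR, bta-miR-361, averaged 3670 ± 335 normalised CPM over control and 3217 ± 190.1 over HS libraries (SD, n = 3 each). Its log2 fold change was -0.19, at a limma adjusted p of 0.539. Without control replicate 1 it was -0.12, and with upper quartile factors, which moved the median of all tested miRNAs to -0.18, it was -0.37. When each library was scaled to bta-miR-361, the median log2 fold change of all tested miRNAs moved to 0.17. The values of bta-miR-132 and bta-miR-212 moved with it, to 0.2 and 0.3 (limma adjusted p = 0.544 and 0.522). Relative to that median they were 0.027 and 0.13.

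Marker miRNAs of other cells that a follicle aspirate can hold were present at these levels. The summed level of 7 blood cell miRNAs ran from 730.2 to 895 normalised CPM in control and from 677 to 800 in HS libraries. Its largest means were those of bta-miR-142-5p (352), bta-miR-223 (251) and bta-miR-150 (114). In the same list bta-miR-451, with a mean of 1.26, was near the floor of 3 reads and bta-miR-144, with 0.117, below it. The summed level of 5 stromal and theca miRNAs ran from 1324 to 2083 in control and from 2008 to 2192 in HS libraries. Most of it was bta-miR-199a-3p, with a mean of 1471, while bta-miR-145 averaged 9.49. For 2 endothelial miRNAs the sums were 228 to 352 and 131 to 265. As the pair is also abundant in neurons, 6 neuronal miRNAs were examined. Of these, bta-miR-124b had no row, bta-miR-124a, which defines neurons, was at 0 in every library, and the summed level was 2429 to 2505 in control and 2048 to 2338 in HS cells. Most of this sum was bta-miR-128, with a mean of 2232 normalised CPM. In these lists 0 of 15 tested miRNAs had a limma adjusted p of at most 0.2, against 7.12% of all tested miRNAs, and 0 had an unadjusted p under 0.05, against 14.5%. With so few miRNAs these numbers are near the background and show nothing particular to the lists. Their part in the levels of bta-miR-132 and bta-miR-212 was not tested. In bulk RNA, fewer cells of a type and less RNA per cell cannot be told apart.

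**Figure D4:**
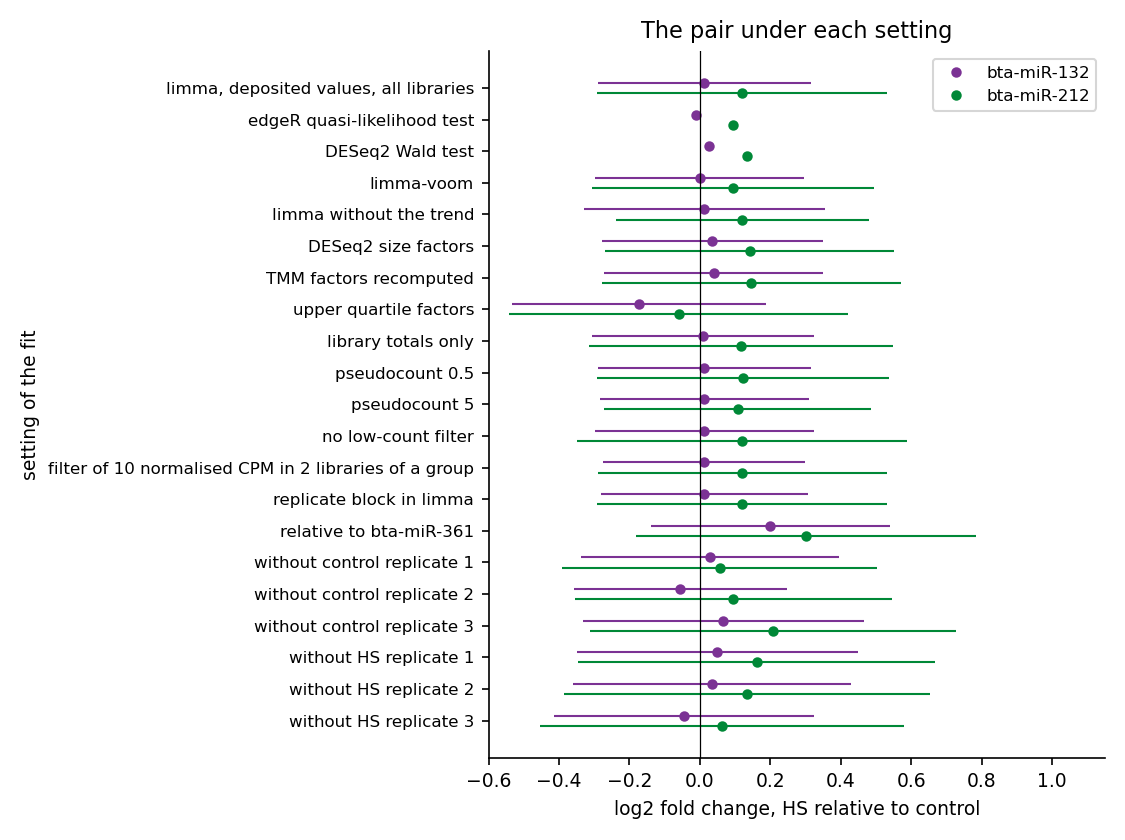
Log2 fold change (HS relative to control) of bta-miR-132 and bta-miR-212 under each setting of the fit, with the 95% interval where the fit gives one. Every interval drawn includes 0, the values run from -0.17 to 0.2 for bta-miR-132 and from -0.061 to 0.3 for bta-miR-212, and the largest shifts come with upper quartile factors and with scaling to bta-miR-361.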

How the data were processed

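Small RNA libraries of 3 control and 3 HS granulosa cell samples were made from 100 ng of RNA with a kit that adds molecular identifiers, and 16 PCR cycles. Adapters were removed by the authors with cutadapt 1.11 and reads of 1 identifier merged. Mapping used Bowtie2 2.2.2 and UMD3.1, followed by miRBase miRNAs, and edgeR gave the TMM scaling. The signal that the authors deposited is TMM-normalised CPM. How reads that fit several miRNAs were shared is not given in the sources used here.

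In every library 100% of the values were whole multiples of 1 step (tolerance 0.01 of a read), and these whole reads set depth, filter and counting error. limma 3.58.1 (R 4.3.3, mean-variance trend) was fitted on log2(value + 1) for the 365 miRNAs that passed filterByExpr of edgeR 4.0.16, with Benjamini-Hochberg adjustment over all of them. Fold changes on this scale understate changes of low miRNAs. The script was tested on simulated data. Exact permutation tests used Python 3.11.15 with scipy 1.17.1, and DESeq2 1.42.0 was an alternative. Replicates of a group differed by more than sampling noise (chi-square per degree of freedom at least 84.3).

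Members and lists were chosen with earlier results of these data known. Named miRNAs were the members, bta-miR-361, the closest 3 in pattern to each member, their neighbours in level and, from the gonadotropin list, the most abundant, any with an adjusted p of at most 0.2 and the one with the smallest. miRNAs sharing a seed with a member were to be named too, and were not, since sequences were not used here. Alternatives were other scalings, tests, filters and pseudocounts, a block for the replicate number, and each library left out in turn. The same settings for bta-miR-320a, bta-miR-21-5p and bta-miR-361, and the number of calls after scaling to bta-miR-361, were added after the data were seen.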

Additional observations from a re-analysis of the deposited data

How the results depend on the processing

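bta-miR-132 and bta-miR-212 had an adjusted p above 0.2 under each of 20 alternatives, from 0.544 to 0.995 and from 0.522 to 0.96. The sign for bta-miR-132 turned with the edgeR quasi-likelihood test (-0.012), limma-voom (-0.00091) and upper quartile factors (-0.17), and lay between -0.056 and 0.066 with 1 library left out, being negative without control replicate 2 and without HS replicate 3. For bta-miR-212 it turned with upper quartile factors (-0.061), and lay between 0.056 and 0.21 with 1 library left out. Upper quartile factors moved the median of all tested miRNAs to -0.18, and relative to that median the members were at 0.0046 and 0.12. bta-miR-21-5p was at -0.13 with these factors and ran from -0.099 to 0.15 with 1 library left out. The HS minus control difference in the log2 ratio of the members ran from -0.15 to -0.028 with 1 library left out, and their correlation from 0.436 to 0.987. Of all tested miRNAs, 8 to 11 were past the study's threshold under 13 alternatives that kept all libraries, 18 with each library scaled to bta-miR-361, and 8 to 16 with 1 left out. At an adjusted p under 0.05 the number was 8, against 20 with the DESeq2 Wald test and 5 with upper quartile factors, and 2 to 12 with 1 library left out (2 without control replicate 3, HS replicate 2 or HS replicate 3). The cause was not tested.

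Deviations from the group means correlated at 0.485, -0.114 and 0.743 for same-numbered libraries, and replicate 2 did not correlate best with its own number. With 3 libraries a group, these correlations cannot show whether the numbers mark paired samples. With the replicate block, bta-miR-132 was at 0.013 (limma adjusted p = 0.958) and bta-miR-212 at 0.12 (limma adjusted p = 0.767), and 10 and 6 of all tested miRNAs were past the study's threshold and 0.05. The mean paired difference (HS minus control) in this log2 ratio was -0.11 (exact sign-flip test, p = 0.25, the smallest possible). Of the 2 members, depth limits bta-miR-212 more, with 61 reads in control replicate 1.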
